A study of Homo sapiens with 3 samples.

Results

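The genes compared were those measured in PLC-PRF-5 cells treated with the sorafenib probe and in cells treated with DMSO, on 1 array each. A gene was included when a beadchip probe annotated to it had a detection p-value under 0.01 on both arrays, which held for 8930 of the 20046 annotated genes on the array. Of these, 201 (2.25%) were at least 1.5-fold higher with the sorafenib probe and 176 (1.97%) were at least 1.5-fold lower. At 2-fold the counts were 22 (0.246%) and 15 (0.168%). With unnormalized arrays, where the median of all genes was -0.165 on the log2 scale, the 1.5-fold counts were 89 higher and 529 lower. The inclusion rule did not use the difference between the arrays.

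The established cell line PLC-PRF-5 comes from a human hepatoma. Sorafenib is an inhibitor of several kinases that is given for liver cancer, and the sorafenib probe is an analog of it extended by a group that light links to bound proteins and by an alkyne at its end, by which these proteins can be captured or stained. The 3 cultures were grown for 20 h and then treated for 24 h with the solvent DMSO, sorafenib or the sorafenib probe. The labels of the samples give 10 μM for both compounds, while the treatment protocol of the same samples gives 50 μM, so the dose is not settled. The series holds 1 sample a group. There is no replicate check, no test was possible, and every difference below is a description of these 2 arrays. An effect of the compound and a difference between the single cultures cannot be told apart. Values are normalized intensities on a linear scale, and differences are log2 values of the sorafenib probe minus DMSO. The word probe alone is avoided for the array, whose features are called beadchip probes.

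Cells that lack amino acids, or whose endoplasmic reticulum or mitochondria are stressed, slow general translation and translate the transcription factor ATF4 instead, which switches on genes of amino acid synthesis, amino acid import and transfer RNA charging. Cholesterol and fatty acid synthesis are under the control of the SREBP transcription factors, which are held in the endoplasmic reticulum by INSIG proteins when sterols are plentiful. In liver cells both programs are large parts of metabolism, and both are followed here by lists of their genes.

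The line was checked against markers of its label. Of 13 hepatocyte markers on the array, 2 were above background on both arrays, namely ALB, the serum albumin gene, at 48.1 with DMSO and 49.6 with the sorafenib probe, and the fibrinogen gene FGA at 34.9 and 50.6. Background ended at about 34.8 and 34.0 on these arrays, so both lay near it. None of 5 hepatoma markers, AFP and GPC3 among them, was above background, while all 4 epithelial markers were, with 3019 and 2814 for the keratin gene KRT8. These hepatocyte and hepatoma markers thus do not bear out the label, which is kept here as given. On a wider list of hepatocellular carcinoma markers, 18 of 30 genes were above background on both arrays. The identity of the line was not tested. Endothelial and red cell markers were at background (0 of 5 and 0 of 2 on both arrays). Of 7 markers of stellate cells or fibroblasts 1 was above background on both arrays, the actin gene ACTA2, and of 5 immune markers 2 were, CD68 and CD14, with PTPRC, which defines leukocytes, at background. The collagen gene COL1A1 (24.9 with DMSO and 36.5 with the sorafenib probe) and the lysozyme gene LYZ (31.4 and 35.8) were above background with the sorafenib probe only, close to its limit, and the hepatocyte marker APOH (52.0 and 30.1) with DMSO only. Summed intensities were 422 with DMSO and 343 with the sorafenib probe for the stellate cell and fibroblast markers and 803 and 759 for the immune markers, and their part in any difference was not tested. In a bulk culture fewer cells of a kind and less RNA per cell cannot be told apart.

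Over all 8930 genes the median log2 difference was -0.006, and the middle 95% of genes lay between -0.55 and 0.56. Differences past 1.5-fold were found more often among dim genes. With the genes divided by signal into 3 groups of equal size, the dimmest group had mean intensities from 34.6 to 103, and in it 105 genes were higher and 91 lower. In the middle group, up to 326, 66 were higher and 61 lower, and in the brightest group, 30 were higher and 24 lower, which is 1.01% and 0.806% of its genes. The last gene inside the threshold on the higher side was NDUFV3, a subunit of respiratory complex I, at 35.6 with DMSO and 53.4 with the sorafenib probe (1.501-fold), and the first outside was FMC1 at 496 and 744. On the lower side they were CORO1C at 645 and 430 (1.501-fold) and OSBPL10 at 131 and 87.4 (1.499-fold). These 4 genes were picked only for their place at the threshold, and the threshold has no other standing.

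**Figure D1:**
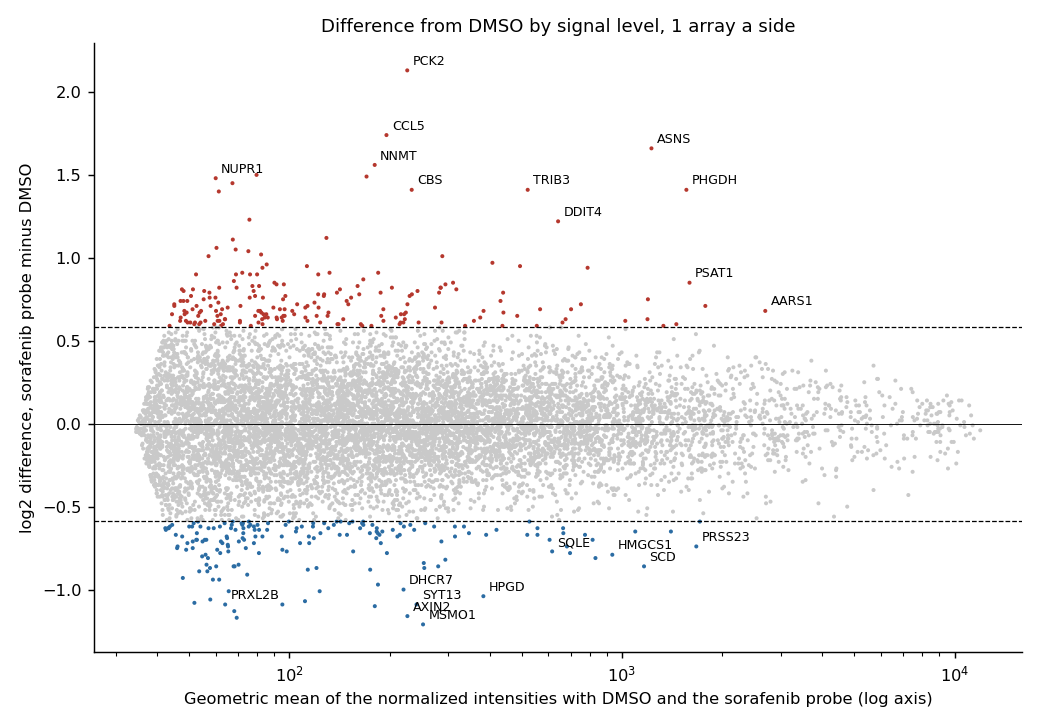
Each point is 1 of 8930 genes, with the geometric mean of its normalized intensities on the DMSO and sorafenib probe arrays on the x axis (log scale) and the log2 difference between them on the y axis. Red points (201) lie at or above 1.5-fold and blue points (176) at or below it, the dashed lines mark 1.5-fold, and the scatter narrows with signal, so that bright genes such as ASNS and PHGDH stand farther from their neighbours than dim genes of the same difference.

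Several of the brightest genes with large differences belong to the amino acid response. The list of ATF4 and amino acid stress regulators had 20 members above background, of which 7 were at least 1.5-fold higher (35.0%, against 2.25% of all genes) and none was as much lower. Of its members 18 lay above 0, as did 4369 of all 8930 genes. Its median log2 difference was 0.46. This list and the others were drawn up by function with earlier results of these data known, so their shares are descriptions only. PCK2, a mitochondrial enzyme that turns oxaloacetate into phosphoenolpyruvate, had the highest difference of all genes. Its signal was 108 in DMSO cells, 473 in sorafenib probe cells and 485 in sorafenib cells, so the treated cultures stood together, 4.37-fold above DMSO for the sorafenib probe. Both treated cultures are read against the same DMSO array. ASNS, the asparagine synthetase gene, stood at 690, 2178 and 2286 in the same order, 3.16-fold higher with the sorafenib probe, and its second beadchip probe gave a log2 difference of 1.42 beside 1.66.

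The regulators of the response were in the same direction but at very different levels. TRIB3, a pseudokinase that restrains ATF4 and AKT, went from 319 with DMSO to 849 with the sorafenib probe, and DDIT4, an inhibitor of mTORC1, from 421 to 980. NIBAN1, which is induced by stress and affects translation, was dim, with 47.3 and 134, and NUPR1, a small stress-induced chromatin protein, was dimmer still, with 36.0 and 100. Each of the 4 was at least 2.33-fold higher, and sorafenib cells, at 785, 944, 118 and 79.7, also stood above DMSO. VLDLR, a lipoprotein receptor, was 1.63-fold higher (70.2 and 114).

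Other genes of the list stayed inside 1.5-fold, including its namesake. ATF4 itself had 3676 with DMSO and 4578 with the sorafenib probe, a log2 difference of 0.32. The values of DDIT3, the CHOP transcription factor, were 49.1 and 67.9 (0.47), those of CEBPB 1384 and 2010 (0.54), and those of GDF15, a stress cytokine, 570 and 706 (0.31). The lowest members were NARS1, at -0.02, and SQSTM1, the autophagy receptor p62, at -0.01. These 6 genes were chosen after their values were seen.

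Enzymes of amino acid synthesis differed among themselves. Of 16 genes of serine, glycine and one-carbon metabolism 3 were at least 1.5-fold higher (18.8%) and none lower, with a list median of 0.12. PHGDH, the first enzyme of serine synthesis, went from 959 to 2542, and PSAT1, the second, from 1188 to 2143. AHCY, which removes S-adenosylhomocysteine, was 1.52-fold higher (1181 and 1796). Of 10 genes of proline, asparagine and glutamate metabolism 3 were higher and 1 lower. PYCR1, a mitochondrial enzyme of proline synthesis, was 1.72-fold higher (178 and 306), whereas PYCR3, its cytosolic counterpart, was 1.54-fold lower at a signal near background (61.9 and 40.3). CBS, which joins homocysteine and serine on the way to cysteine, was 2.65-fold higher (143 and 380). It was the only 1 of 21 genes of glutathione and transsulfuration past 1.5-fold (4.76%, against 2.25% of all genes).

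The genes that load amino acids onto transfer RNAs were split. Of 18 cytosolic aminoacyl-tRNA synthetases 4 were at least 1.5-fold higher (22.2%), none was lower, 10 lay above 0 and 8 below it. The 4 were EPRS1 (922 with DMSO and 1552 with the sorafenib probe), AARS1 (2130 and 3412), MARS1 (536 and 818) and YARS1 (1086 and 1633), which charge glutamate and proline, alanine, methionine and tyrosine. At the other end KARS1, for lysine, had a difference of -0.31, which was chosen after its value was seen. Among 17 amino acid transporters 2 were higher, SLC1A5, which carries glutamine (446 and 721), and SLC6A9, which carries glycine (45.3 and 74.1), and the list's median was -0.05. EIF4EBP1, the binding protein that blocks the cap-binding factor, was 1.80-fold higher (71.7 and 129). It was the only 1 of 47 translation initiation genes past 1.5-fold (2.13%, against 2.25% of all genes).

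The promoters of these genes were searched for the composite site of ATF4 and C/EBP factors, given as TGATGNAA on either strand, in 300 bases from 250 before to 50 after the gene start (RefSeq, GRCh38.p14). Of the 201 higher genes 160 had a promoter in the table, and 7 of these (4.38%) held the letters. Among the lower genes it was 2 of 142 (1.41%) and among all genes above background 111 of 7307 (1.52%). A match is a description of the sequence and not a binding site. The 7 stretches are shown because they are the higher genes with the letters, in the order of their differences, with the match in capitals and 30 bases on each side, read 5′ to 3′ on the strand of the gene. TTTCATCA and TTGCATCA are the same site on the other strand.
ASNS, chr7:97872439-97872506, minus strand: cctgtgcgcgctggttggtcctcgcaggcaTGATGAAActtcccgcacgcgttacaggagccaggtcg
S100P, chr4:6693725-6693792, plus strand: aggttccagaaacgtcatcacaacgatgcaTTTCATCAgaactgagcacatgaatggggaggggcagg
DNASE2, chr19:12881400-12881467, minus strand: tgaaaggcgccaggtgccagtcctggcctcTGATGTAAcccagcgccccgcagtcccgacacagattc
AARS1, chr16:70289656-70289723, minus strand: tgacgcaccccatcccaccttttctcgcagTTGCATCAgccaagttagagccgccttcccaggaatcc
TMEM268, chr9:114611260-114611327, plus strand: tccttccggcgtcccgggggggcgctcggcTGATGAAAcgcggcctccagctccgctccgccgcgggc
MARS1, chr12:57488034-57488101, plus strand: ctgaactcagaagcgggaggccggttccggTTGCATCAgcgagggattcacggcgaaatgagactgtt
PLEKHH3, chr17:42677163-42677230, minus strand: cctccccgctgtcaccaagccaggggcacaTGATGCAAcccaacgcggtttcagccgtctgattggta
The ASNS match began 68 bases before the gene start. The amino acid response element known for this gene lies in its proximal promoter. ASNS, AARS1 and MARS1 were the 3 of 18 higher genes on the amino acid lists with the letters. S100P, DNASE2, TMEM268 and PLEKHH3 are on none of these lists, and the last 3 were named only for the match, with log2 differences of 0.77, 0.65 and 0.60.

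Of the 19 promoters of the ATF4 list 3 held the letters, and of the 16 of the cholesterol list none did. These 3 are not the 3 named above, since AARS1 and MARS1 are on the synthetase list. Of the ATF4 list's matches only that of ASNS was in a gene past 1.5-fold. The other motifs had shares among the higher and the lower genes that lay within a few percentage points of those among all genes. The sterol response element TCACNCCAC was in 2 of 160 promoters of higher genes (1.25%), 2 of 142 of lower genes (1.41%) and 66 of 7307 of all genes (0.903%), and in none of the 16 cholesterol genes with a promoter or the 19 genes of the ATF4 list. The cAMP response element TGACGTCA was in 3.12%, 2.11% and 3.53% of the same 3 sets, the E-box CACGTG in 11.2%, 11.3% and 10.8%, and the antioxidant response element TGACNNNGC in 15.0%, 14.1% and 15.8%. In the small sets of the lists the shares were farther from those of all genes. The E-box was in 3 of the 16 cholesterol promoters (18.8%) and 1 of the 19 of the ATF4 list (5.26%), and the antioxidant response element in 1 (6.25%) and 4 (21.1%). All were searched on both strands, bases that matched more than 1 motif counted for each, and the absence of a match says only that the letters are not in this window.

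**Figure D2:**
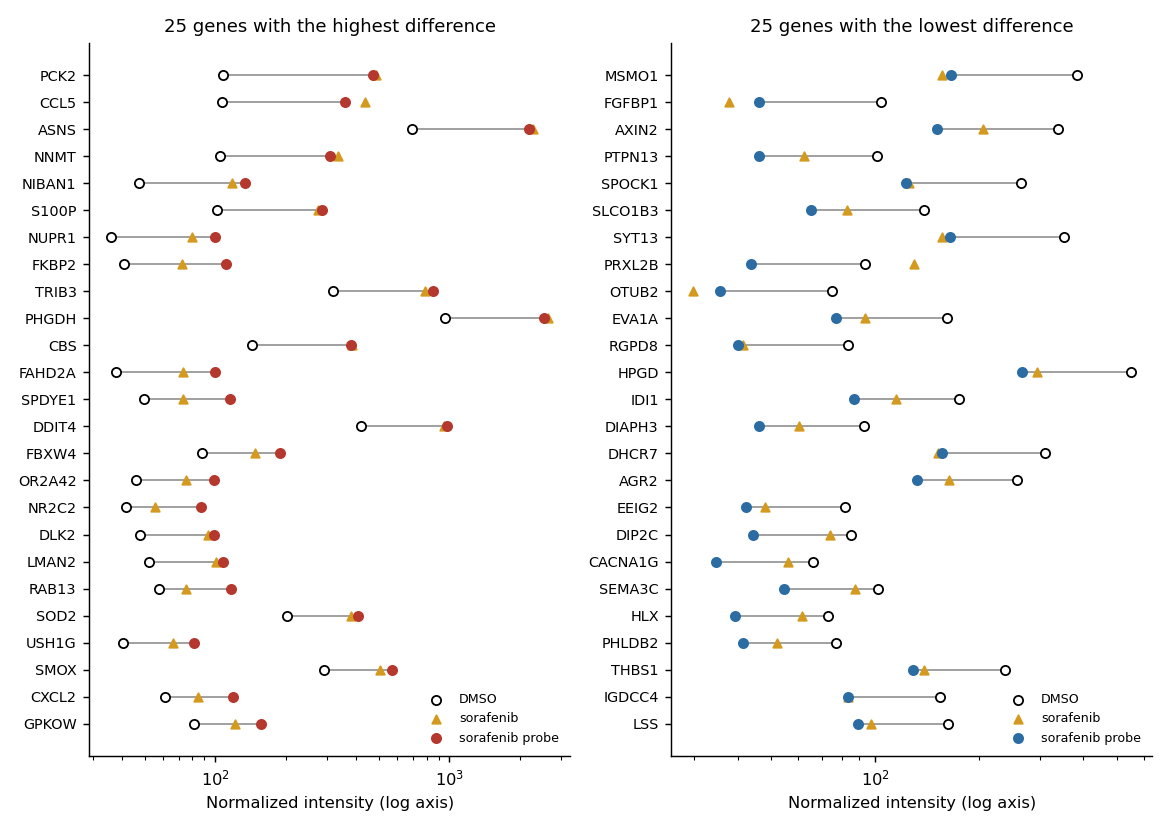
Normalized intensity (x axis, log scale) on the 3 arrays for the 25 genes with the highest (left) and the 25 with the lowest (right) difference between the sorafenib probe and DMSO, 1 point an array, with open circles for DMSO, triangles for sorafenib and filled circles for the sorafenib probe. The DMSO value lies to the left of both compounds for all 25 genes on the left, and to the right of both for all on the right except PRXL2B, where sorafenib (130) lies above DMSO (93.5). Both compounds are read against the same DMSO array, which also entered the choice of these genes.

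Cholesterol synthesis had the highest share of lower genes of any list. This list too was drawn up with earlier results of these data known. Of 19 genes of cholesterol synthesis and uptake 8 were at least 1.5-fold lower (42.1%, against 1.97% of all genes), none was as much higher, and the median was -0.38. HMGCS1, the enzyme that commits acetyl units to the pathway, was the brightest of them, at 1231 with DMSO, 710 with the sorafenib probe and 679 with sorafenib. SQLE, the squalene epoxidase, followed with 805, 472 and 475. The early enzyme IDI1, which isomerizes the isoprene unit, was 2.02-fold lower (175 and 86.8), with the sorafenib culture in between at 115.

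Late steps were lower as well. LSS, which closes the sterol rings, had 163 with DMSO and 89.2 with the sorafenib probe, CYP51A1, the lanosterol demethylase, had 101 and 65.0, and DHCR7, which completes cholesterol, had 311 and 156. INSIG1, which retains the SREBP complex and is itself a target of it, was 1.54-fold lower (274 and 178). MSMO1, a methyl sterol oxidase, had the lowest difference of all genes by its brightest beadchip probe (383 and 166, log2 -1.21), but its second, dimmer one gave 58.1 and 70.1 (0.27). The direction of MSMO1 therefore differed between its beadchip probes. Of the 19 members of the list 7 lay above 0 and 12 below it. Those above included PMVK, phosphomevalonate kinase, at 0.49 (150 and 210), and EBP, a sterol isomerase, at 0.22, both chosen after their values were seen.

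Of 16 genes of fatty acid synthesis and desaturation 4 were at least 1.5-fold lower, 14 lay below 0 and the median was -0.31. SCD, which puts the first double bond into stearate and palmitate, went from 1566 to 866 (1.81-fold lower), and FADS1, a desaturase of polyunsaturated fatty acids, from 883 to 528 (1.67-fold). ELOVL6, which elongates palmitate, was 1.64-fold lower (241 and 147), with a log2 difference of -0.23 by its second beadchip probe. The brightest of the 4 was TMEM97, a sterol-responsive membrane protein, at 2104 and 1396, although its second beadchip probe gave 236 and 275. The synthase FASN stayed inside the threshold at 1799 and 1461 (-0.30, chosen after its value was seen). None of 13 genes of glycerolipids and lipid droplets passed 1.5-fold, with LPIN1 at -0.37 and PLIN3 at 0.43 as the most distant. Among 17 genes of fatty acid oxidation PDK4, a kinase that shuts pyruvate dehydrogenase, was 1.57-fold lower (231 and 147) and ANGPTL4, an inhibitor of lipoprotein lipase, 1.73-fold higher (143 and 247).

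Genes of secreted and signalling proteins differed in both directions. Of 24 chemokine, cytokine and NF-kB target genes 5 were at least 1.5-fold higher (20.8%) and 1 was lower (4.17%), with a median of 0.04. CCL5, which attracts T cells, went from 107 with DMSO to 358 with the sorafenib probe and 438 with sorafenib. CCL2, which attracts monocytes, went the other way, from 915 to 532 and 458. The neutrophil chemokine gene CXCL2 was 1.95-fold higher (61.3 and 119), IL32 1.61-fold (76.0 and 123) and SOCS3, a feedback inhibitor of cytokine receptors, 1.59-fold (42.5 and 67.8). SOD2, the mitochondrial superoxide dismutase, was 2.01-fold higher (203 and 409). It was the only 1 of 31 NRF2 target and redox genes past 1.5-fold (3.23%, against 2.25% of all genes).

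Among 18 genes of antigen presentation HLA-DRA (47.4 and 78.8), the immunoproteasome subunit gene PSMB9 (80.6 and 129) and HLA-F (37.8 and 58.2) were higher. HLA genes are closely alike, so a beadchip probe for 1 of them may detect another. Among 24 interferon-stimulated genes ISG20, an exonuclease, and IFITM3, which blocks virus entry, were 1.65-fold and 1.59-fold higher, and none was as much lower. The calcium-binding S100P was 2.81-fold higher, at 102 with DMSO, 285 with the sorafenib probe and 276 with sorafenib. It was the only 1 of 9 S100 genes past the threshold (11.1%, against 2.25% of all genes). NNMT, which methylates nicotinamide, was 2.95-fold higher (105 and 310).

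Of 25 growth factor and binding protein genes 2 were higher and 1 lower. FGFBP1, a carrier that releases fibroblast growth factors from the matrix, had 104 with DMSO and 46.3 with the sorafenib probe, and IGFBP2, which binds insulin-like growth factors, had 117 and 193. SPRY2, a feedback inhibitor of receptor tyrosine kinase signalling, was 1.70-fold lower (203 and 119). It was the only 1 of 21 genes of the MAP kinase pathway and its feedback past 1.5-fold (4.76%, against 1.97% of all genes). AXIN2, a feedback inhibitor and standard target of Wnt signalling, was 2.24-fold lower (339 and 151, with 206 in sorafenib cells). The other 18 Wnt target genes stayed inside 1.5-fold, and the list's median was -0.15. None of 13 receptor tyrosine kinase genes passed the threshold, with EPHA2 (-0.37) and MET (-0.38) as the most distant.

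Matrix and adhesion genes past the threshold lay on both sides. Of 29 genes of extracellular matrix and adhesion 2 were lower (6.90%, against 1.97% of all genes) and 1 was higher (3.45%, against 2.25%). The lower ones were the matrix glycoprotein THBS1 (237 and 129) and the integrin ITGAV (703 and 441). The higher one was the epithelial cadherin CDH1 (67.6 and 105), and the list median was -0.09. Among the 25 lowest genes, whatever their function, were also SPOCK1, a proteoglycan (265 and 123), SYT13, a member of the synaptotagmins (352 and 165), the secreted semaphorin SEMA3C (102 and 54.6), PTPN13, a tyrosine phosphatase (101 and 46.1), and IGDCC4 (154 and 83.7). HPGD, which inactivates prostaglandins, was the brightest of the 25, going from 549 to 267 and to 295 with sorafenib. SLCO1B3, a hepatic uptake transporter of bile acids and drugs, was 2.13-fold lower (139 and 65.2). AGR2, a disulfide isomerase of secretory cells, was 1.96-fold lower (258 and 132).

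The remaining genes of the 25 lowest were dim. EVA1A, OTUB2, a deubiquitinase, RGPD8, DIAPH3, a formin, EEIG2, DIP2C, the calcium channel CACNA1G, the homeobox gene HLX and PHLDB2 had DMSO values from 66.0 (CACNA1G) to 161 (EVA1A). With the sorafenib probe they lay between 34.6 (CACNA1G) and 77.0 (EVA1A), so several ended near the limit of detection. Second beadchip probes gave smaller log2 differences of -0.30 for EVA1A, -0.33 for DIAPH3 and -0.25 for PHLDB2. DIAPH3 had 4 beadchip probes above background, whose differences ran from -1.01 to 0.23. RGPD8 belongs to a family of near-identical copies and its signal may come from others of them.

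Among the 25 highest genes 11 further dim ones were on no list. FKBP2, a prolyl isomerase of the endoplasmic reticulum, had 40.9 with DMSO and 111 with the sorafenib probe, and FAHD2A had 37.7 and 99.7. SPDYE1, FBXW4, OR2A42, an olfactory receptor gene, NR2C2, a nuclear receptor, DLK2, LMAN2, a lectin of the secretory pathway, RAB13, a small GTPase, USH1G and GPKOW had DMSO values from 40.3 (USH1G) to 87.8 (FBXW4) and sorafenib probe values from 80.9 (USH1G) to 190 (FBXW4). The second beadchip probe of NR2C2 gave a log2 difference of 0.14 beside 1.06. SPDYE1 and OR2A42 have near-identical relatives in the genome. SMOX, the spermine oxidase, was brighter, with 291 and 571. In all, 154 of the 201 higher genes and 142 of the 176 lower ones were on no list.

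The lists of large complexes had medians near 0. Of 67 cytosolic ribosomal protein genes none passed 1.5-fold, with RPL36 at 0.40 the highest, and the median was 0.04. Of 76 mitochondrial ribosomal protein genes MRPL4 and MRPL28 were higher (2.63%, against 2.25% of all genes), with a list median of 0.07. Of 64 nuclear genes of the respiratory chain NDUFA10 and NDUFV3, both of complex I, were higher (3.12%), also with a list median of 0.07. Of 41 proteasome genes PSMD8, a lid subunit, was 1.92-fold higher (569 and 1091, with 770 in sorafenib cells), and PSMB9 was the other. Of 28 endoplasmic reticulum chaperone genes the cochaperone SDF2L1 (386 and 607) and the transcription factor XBP1 (451 and 681) were higher. HSPA5, the main chaperone of the compartment, was at 200 and 221 (0.15, chosen after its value was seen).

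Heat shock chaperones leaned to the lower side without a member past 1.5-fold. Of 29 genes 22 lay below 0, the median was -0.20, and the most distant were HSP90AB1, a constitutive HSP90, at 2113 and 1458 (-0.54) and CHORDC1, a cochaperone, at 169 and 117 (-0.54). In sorafenib cells the list's median was -0.07.

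Cell cycle genes were near 0. None of 42 genes of DNA replication and none of 24 genes of cyclins and RB control passed the threshold. Of 54 mitosis genes 3 were lower, the kinetochore gene NUF2 (96.0 and 56.9), CCNB1, which codes for cyclin B1 (415 and 270), and the spindle protein HMMR (389 and 254), which is 5.56% against 1.97% of all genes, while 36 lay below 0 and the median was -0.08. Of 20 p53 targets BAX, which opens the mitochondrial outer membrane, was 1.71-fold higher (96.9 and 166) and GADD45B 1.69-fold higher (64.1 and 108). TP53INP1 was 1.55-fold lower (73.6 and 47.6), and 15 members lay below 0, with a median of -0.21. BAX was the only 1 of 25 genes of the BCL2 family and caspases past 1.5-fold.

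Liver transcription factor genes past 1.5-fold went both ways, while the hepatocellular carcinoma markers leaned to the lower side. CEBPA, a factor of hepatocyte differentiation, was 1.87-fold higher, at 89.2 with DMSO and 167 with either compound, and NR5A2, a nuclear receptor of liver and pancreas, was 1.52-fold lower (315 and 208). The iron-handling list's only member past 1.5-fold was ID1, an inhibitor of differentiation factors that BMP signals induce, at 1392 and 2277. Of 18 hepatocellular carcinoma marker genes above background PEG10, an imprinted gene, was 1.61-fold lower (150 and 93.4), 15 lay below 0, and the median was -0.36. EGLN1, the oxygen sensor, was lower (219 and 139). It was the only 1 of 30 glycolysis and hypoxia genes past the threshold (3.33%, against 1.97% of all genes). Further list members past it were CYP4F11, a fatty acid hydroxylase, on the higher side (356 and 536) and, on the lower side, SGK1, a kinase downstream of PI3-kinase (266 and 175), CNN3, an actin-binding calponin (837 and 530), the splicing factor RBM25 (493 and 309), the succinate dehydrogenase subunit SDHD and MT1E. MT1E belongs to the metallothioneins, whose genes are closely alike.

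**Figure D3:**
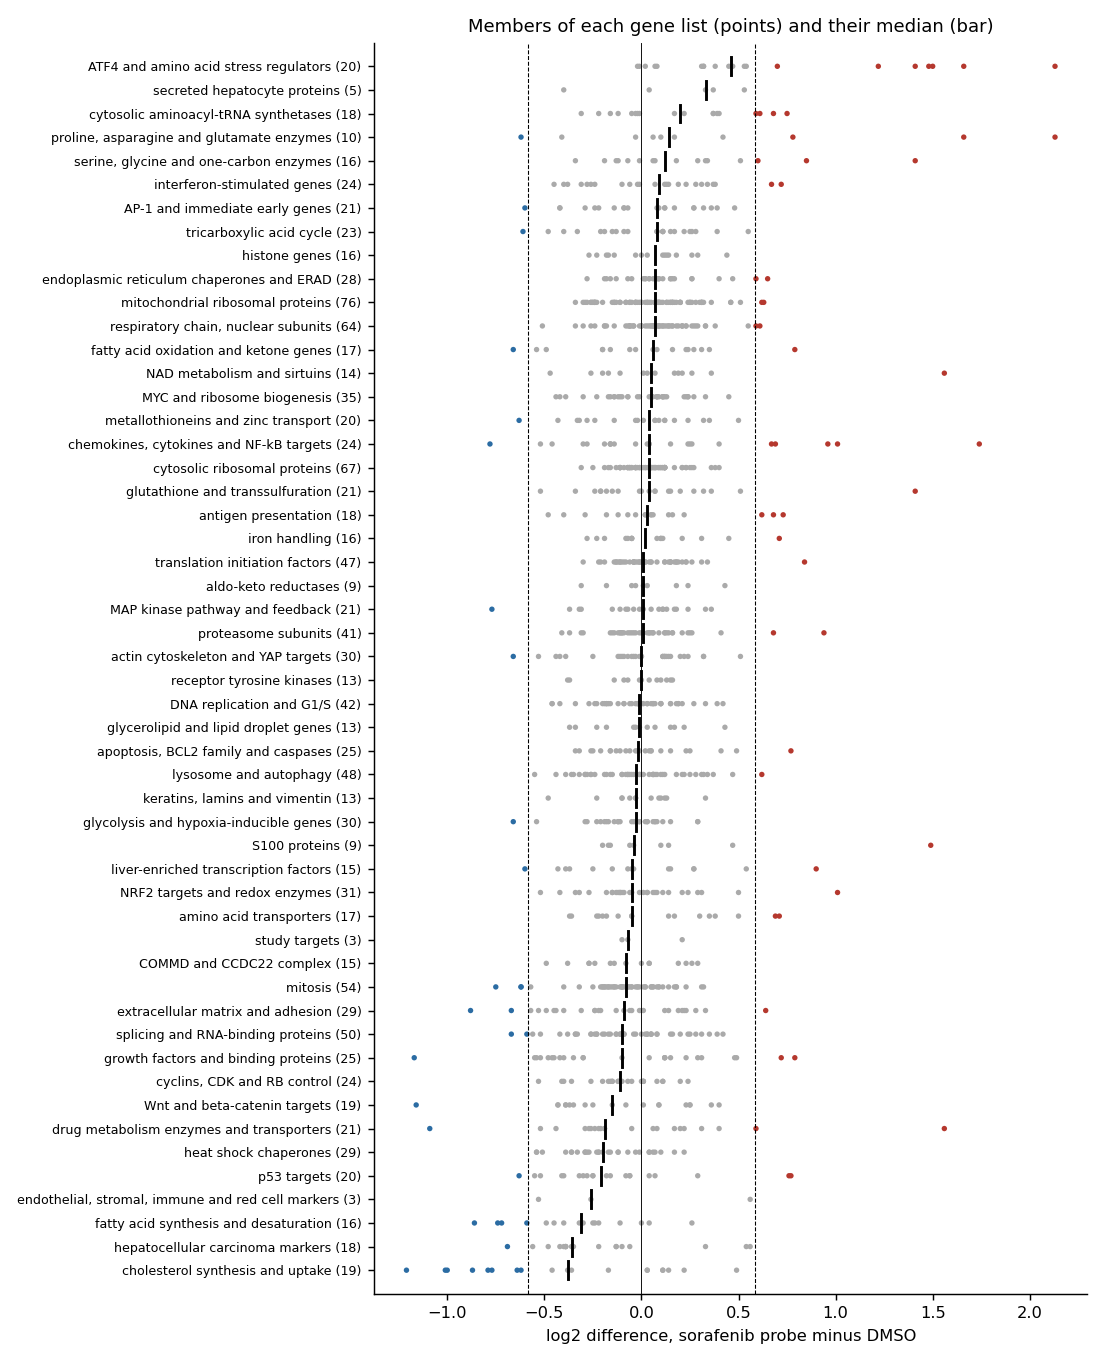
Log2 difference between the sorafenib probe and DMSO (x axis) for every gene above background on both arrays in each of 52 lists with at least 3 such members (the number is in brackets), with the list's median as a black bar, dashed lines at 1.5-fold, and red or blue points past it. The ATF4 list stands at the top with a median of 0.46 and 7 red points, and cholesterol synthesis at the bottom with -0.38 and 8 blue points, whereas most lists centre near 0.

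A second beadchip probe above background on both arrays gave another reading of the same RNA for 2056 genes. It is not a replicate culture. Over these genes 42 (2.04%) of the second beadchip probes were at least 1.5-fold higher and 56 (2.72%) were lower. Among the 201 higher genes 31 had a second one, of which 11 (35.5%) also passed 1.5-fold upward, 26 had the same sign and 5 the opposite, with a median of 0.40. Among the 176 lower genes 37 had a second one, of which 3 (8.11%) passed 1.5-fold downward, 29 had the same sign and 8 the opposite, with a median of -0.28. Second beadchip probes were dimmer, with a median intensity of 111 against 317.

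The higher genes that passed by both readings were PCK2 (2.13 and 0.85), ASNS (1.66 and 1.42), SOD2 (1.01 and 1.12), BCAS4 (0.82 and 0.89), SMOX (0.97 and 0.76), ID1 (0.71 and 1.04), RALGDS (0.68 and 0.79), TSC22D3 (0.64 and 0.68), ERP29 (0.63 and 1.08), HAX1 (0.81 and 0.63) and ULK1 (0.62 and 0.61). ULK1 is the kinase that starts autophagy, TSC22D3 a leucine zipper protein that glucocorticoids induce, ERP29 a chaperone of the endoplasmic reticulum, and RALGDS an exchange factor for Ral GTPases. The 3 lower genes were DHCR7 (311 to 156 and 249 to 124), SQLE (log2 -0.77 and -0.74) and PTPN13 (log2 -1.13 and -0.63). Of the 8 lower cholesterol genes, DHCR7 and SQLE thus passed by both readings, and MSMO1 was opposed by its second one.

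Among genes whose readings had opposite signs, the widest gap after MSMO1 was in APOBEC3F, a cytidine deaminase, with -0.81 and 0.24. It was followed by HNRNPDL (-0.59 and 0.28), THAP1 (-0.63 and 0.25), MAP2K5 (0.76 and -0.10), CHKB (0.66 and -0.21), TNC (-0.76 and 0.07), TMEM97 (-0.59 and 0.22), RANBP3 (0.62 and -0.16) and MRPL4 (0.63 and -0.15). None of these second readings passed 1.5-fold. Whether the beadchip probes of these genes read different transcripts was not tested.

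**Figure D4:**
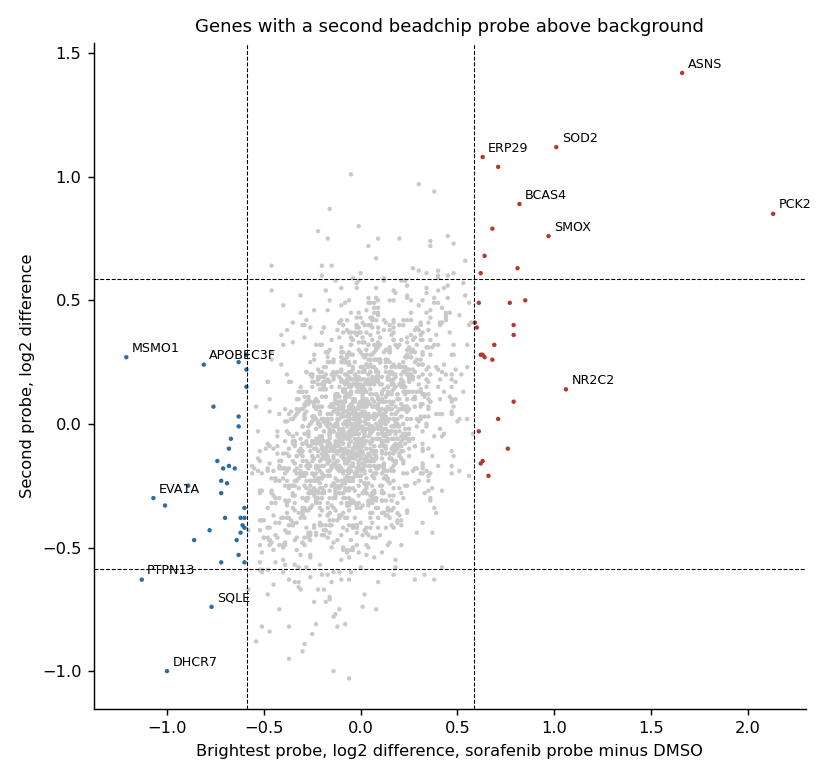
Log2 difference between the sorafenib probe and DMSO by the brightest (x axis) and the second (y axis) beadchip probe of 2056 genes, with dashed lines at 1.5-fold and the genes past it by their brightest one in red (31) and blue (37). ASNS, SOD2 and PCK2 lie in the upper right corner and DHCR7, SQLE and PTPN13 in the lower left, while MSMO1 lies left of the line but above 0.

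A further 1136 genes were above background on 1 of the 2 arrays only, 627 with the sorafenib probe and 509 with DMSO. For these the dim side gives a bound, for which its value was raised, where it was lower, to the dimmest signal that counted as above background on the same array. By this bound 36 genes had differences of 1.5-fold or more toward the sorafenib probe and 29 toward DMSO. The largest bounds on the higher side were those of CCDC85B (at least 2.46-fold), LCN2, a siderophore-binding lipocalin (at least 2.21-fold, from 24.5 to 76.9), PC, the pyruvate carboxylase (at least 2.18-fold, from 31.1 to 75.9), HNRNPA3P1, FAM13A and MIR99AHG. HNRNPA3P1 is a pseudogene, so its signal may come from HNRNPA3. On the lower side they were those of GSN, the actin-severing gelsolin (at least 2.37-fold, from 80.7 to 32.0), SNX10 (at least 2.05-fold), PTGER3, a prostaglandin E receptor (at least 1.97-fold), FUT4, KIRREL1 and PRKD3. All 6 on the lower side were not well above background with the sorafenib probe.

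Of the proteins that the study treats as targets of sorafenib 3 had genes above background on both arrays, and none passed 1.5-fold. KRT8 was at 3019 with DMSO and 2814 with the sorafenib probe, TTK, a mitotic checkpoint kinase, at 248 and 236, and SIRT7, a nuclear deacetylase, at 72.1 and 83.5. CCDC22 was above background with DMSO (49.9) and not well above it with the sorafenib probe (33.5), at least 1.47-fold lower. Among receptor kinases that sorafenib inhibits, KIT, FLT3, FLT1, PDGFRB and KDR had no signal well above background with DMSO or the sorafenib probe, so a difference in their RNA was not detectable here. By Western blot in this line, the study reports less phosphorylation of VEGFR2, the product of KDR, and of PDGFRβ. It reports no significant change in their total amounts. Array RNA and protein are different measures.

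The genes past 1.5-fold were unevenly spread over the chromosomes, which no list used. Chromosome 19 held 583 genes above background, of which 34 (5.83%) were higher and 3 (0.515%) lower, and its median log2 difference was 0.107. Chromosomes 20 and 22 had 10 and 8 higher genes (3.85% and 3.70%) and 1 and 2 lower ones. Chromosome 13 had 1 higher and 7 lower genes (4.83% of 145), and chromosome 12 had 8 and 17. In sorafenib cells, read against the same DMSO array, the median of chromosome 19 was 0.110 and that of chromosome 13 was -0.042. Without normalization between arrays the count on chromosome 19 was 14 higher (2.40%) and 13 lower (2.23%), with a median of -0.050. Of all 8930 genes 89 were then higher and 529 lower, with a median of -0.165.

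The higher genes were shorter at the median, which was not tested. Their span from start to end had a median of 15.6 kb, against 41.1 kb for the lower genes and 28.2 kb for all genes above background. Within the brightest of the 3 groups by signal the medians were 16.4 kb and 28.0 kb, and within the dimmest 15.9 kb and 46.5 kb. The GC content of the promoters differed less, with medians of 66.7% for higher, 67.5% for lower and 65.7% for all genes. Of the higher genes 194 code for proteins and 7 do not, and of the lower genes 174 and 2.

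**Figure D5:**
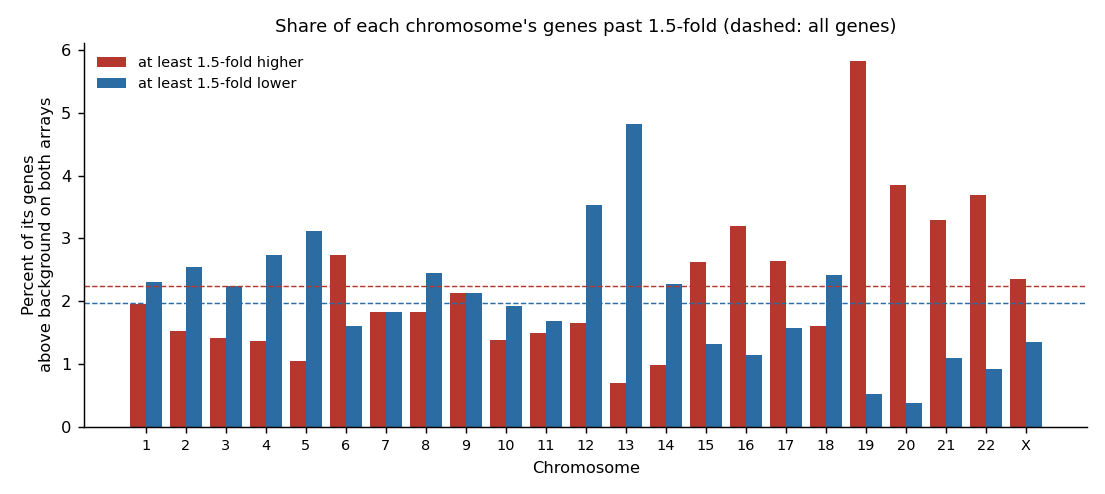
Percent of the genes above background on each chromosome (x axis) that were at least 1.5-fold higher (red bars) or lower (blue bars) with the sorafenib probe, with dashed lines at the shares of all genes, 2.25% and 1.97%. Chromosome 19 has the tallest red bar at 5.83% and a blue bar of 0.515%, and chromosome 13 the tallest blue bar at 4.83%.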

How the data were processed

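RNA of PLC-PRF-5 cells was measured on an Illumina beadchip with 47323 beadchip probes, 1 array a group. One table deposited by the authors holds intensity values after background subtraction without normalization between arrays (mean 183, 159 and 164 for DMSO, sorafenib and the sorafenib probe), and was used here. A second intensity table is named as not normalized. Of its sorted values above a floor of 1, 98.2% were equal on the 3 arrays, so it is quantile normalized. It came with a deposited detection p-value for each beadchip probe, in steps of 1 in 770. The sources used here do not give the scanner software.

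Background correction was by normexp, its parameters inferred through the detection p-values (offset 16), followed by quantile normalization over the 3 arrays and log2 transformation, with limma 3.58.1 in R 4.3.3. Python 3.11.15 with numpy 2.4.6 and pandas 2.3.3 did the rest. The authors deposited no log2 values, and their quantile normalized intensities were converted to log2 as an alternative. The platform annotation gave 1 gene symbol to 30113 beadchip probes and several to 8, and 17202 were not listed. Entrez identifiers gave a current name to 99.9% of the former (RefSeq, GRCh38.p14). A gene was represented by its brightest beadchip probe above background on both arrays. Of 2807 beadchip probes above background without 1 gene, 58 were at least 1.5-fold higher and 36 lower.

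At a detection limit of 0.01, 15268 to 15541 beadchip probes (32.3% to 32.8%) were above background on an array. How precise the values are is limited by the number of arrays. No p-value, interval or set test was computed between groups. The steps were tested on simulated data.

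The members and the 53 gene lists were chosen with earlier results of these data known. A rule set with them names the 25 highest and 25 lowest genes, up to 8 members past 1.5-fold of each list in each direction (or the 2 most distant where none passed), up to 20 genes in each direction that both readings put past 1.5-fold, up to 10 with opposed readings, 6 bounds each way and the study's targets. Genes named outside it are marked. Lists were described by counts and medians, without a test. Sequences are from RefSeq. Alternatives were another offset, the authors' quantile normalized table, median scaling, no normalization, normalization of the 2 arrays only, other detection rules, the mean of the detected beadchip probes and 2-fold.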

Additional observations from a re-analysis of the deposited data

Results flagged for a closer look

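Among the genes past 1.5-fold with the sorafenib probe, 9 lay on the other side of DMSO with sorafenib. The difference between the compounds was not tested, since each has 1 array, and both are read against the same DMSO array. PRXL2B, a peroxiredoxin-like enzyme of prostaglandin synthesis, was at 43.9 with the sorafenib probe, below the 93.5 of DMSO, and at 130 with sorafenib, above it (log2 differences of -1.09 and 0.47). ERGIC2, a protein of the compartment between endoplasmic reticulum and Golgi, had -0.64 and 0.17. The other 7 were higher with the sorafenib probe and lower with sorafenib. ADAMTSL5 had 0.71 and -0.34 (67.2 with the sorafenib probe, 41.1 with DMSO and, not well above background, 32.6 with sorafenib), SAMD1 0.83 and -0.12, RNF215 0.80 and -0.10, GABRE, a subunit of GABA receptors, 0.68 and -0.15, TCAM1P, a pseudogene, 0.60 and -0.18, and MISP, a spindle-positioning protein, 0.65 and -0.02. NT5M, a mitochondrial nucleotidase, had 0.62, and its sorafenib value of 48.8 was just under that of DMSO. All 9 were chosen by this property, after their values were seen, and none had a second beadchip probe above background.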

How the results depend on the processing

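The counts of 201 higher and 176 lower genes depended on the processing. An offset of 50 lowered them to 79 and 52, and 2-fold to 22 and 15. From the authors' quantile normalized table they were 372 and 380. Leaving out the normalization between arrays gave 89 and 529, and leaving out the detection filter gave 433 and 424. Median scaling gave 236 and 142, which moved the share of higher genes from 53.3% to 62.4% of those past 1.5-fold, and without normalization that share was 14.4%. Without normalization all genes had a median of -0.165. No gene past 1.5-fold changed its sign under any alternative. Under the other offset and the 4 other normalizations together, 60 of the higher and 52 of the lower genes stayed past 1.5-fold. Of 11 higher genes passed by both beadchip probes, 5 were without normalization, and the 3 lower ones became 14 from the authors' table and 36 when arrays were not normalized. Of the list medians at least 0.1 from 0, 5 turned their sign under 1 alternative each. Without normalization the one-carbon list had -0.03 and the proline, asparagine and glutamate list -0.02, with the mean of the detected beadchip probes growth factors had 0.02, and with no detection filter Wnt targets had 0.06 and other cell type markers 0.01. The ATF4 list's median ranged down to 0.31 without normalization and the cholesterol list's to -0.54. The cause of these shifts was not tested. No paired analysis was possible because each group has 1 array and its number only names it.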
